A study of Cricetulus griseus with 24 samples.

Results

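LR73 cells, a Chinese hamster line that takes up dying cells, were given apoptotic human cells and the actin poison cytochalasin D together and compared with the same phagocytes left alone. The comparison takes its members from the labels: 8 of the 24 libraries of the study, 4 of phagocytes with both treatments and 4 of phagocytes alone, here called the control. The 4 libraries of cytochalasin D alone and the 4 of apoptotic cells alone come from the same experiment and are given beside the 2 compared groups. The corpses were Jurkat cells, a human T cell lymphoma line, irradiated with ultraviolet C at 1500 mJ and held for 4 h before they met the phagocytes. All 16 cultures grew in alpha-MEM with 10% FBS and share the genotype of the parental LR73 line. The dose of cytochalasin D and the hours of co-culture are not stated in the labels, the line is a single cultured line, and no library analysed here holds corpses without phagocytes. RNA was sequenced as a mixture of whatever phagocytes and corpses the dish held, with no sorting, and each group has 4 libraries described as biological replicates. Levels are CPM, counts scaled to the effective library size, given as mean ± SD over n = 4 libraries, and a gene was called changed at an edgeR adjusted p under 0.05.

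Cytochalasin D caps the growing end of actin filaments, so a phagocyte can touch a corpse and sense it but cannot fold its membrane around it. The drug also frees the transcription coactivator MRTF from actin monomers, and MRTF with serum response factor (SRF) then transcribes actin and actin-binding genes. Phagocytes that do ingest corpses are known to adjust lipid, sugar and ion handling. Cultures with both treatments hold corpses and phagocytes while the drug stands in the way of uptake.

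The line was named a fibroblast in the labels, and the marker genes gave a partial picture. Of 13 fibroblast markers, 7 exceeded 1 CPM in control libraries, including Vim, Fn1, Sparc and Pdgfra, whereas Col1a1, Col1a2, Thy1, Fap and Lum were below 1 CPM. Total counts ranged from 11001222 to 18671692 in control and from 8272232 to 18911353 with both treatments, a difference that did not pass the threshold (two-sided exact permutation test, p = 0.629, n = 4 against 4). The 20 most abundant genes took 8.95 ± 0.128% of counts with both treatments and 7.13 ± 0.169% in control, a separation without overlap (exact permutation p = 0.0286, the smallest that 4 against 4 allows, and 0.0476 adjusted over 10 measures).

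With both treatments, 3478 of 13106 genes tested differed from control (26.5%). Of these, 1802 were higher (13.7%) and 1676 lower (12.8%), so calls fell almost evenly on both sides, yet the large changes did not. At least 2-fold rises numbered 295 (2.25%) against 104 falls of that size (0.794%), and among changes of at least 4-fold there were 117 rises and 12 falls. The 295 include 72 genes near 0 without corpses, described below, whose direction was fixed by the filter on counts. Part of this imbalance therefore followed from the filter, and the 4-fold changes were not counted without such genes. Many calls were small: 800 rises and 760 falls had an absolute log2 change under 0.32, and the median absolute log2 change of called genes was 0.35. The median log2 change of all genes tested was 0.01. The groups did not overlap for 3647 genes (27.8%).

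**Figure D1:**
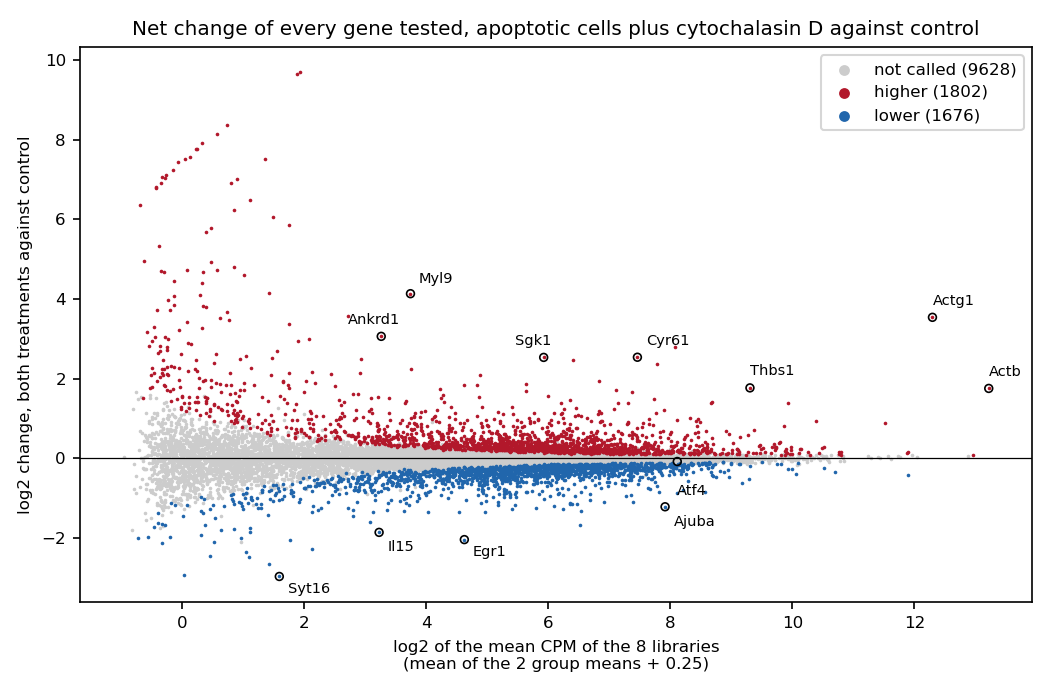
Log2 change of both treatments against control (vertical) against log2 mean CPM of the 2 groups (horizontal) for the 13106 genes tested, each gene a point; red genes were called higher, blue lower, grey not called. The tall rises at the left are genes nearly silent in control, whose fitted change depends on the prior count; Actg1 and Actb stand out at high level, and Atf4 lies at the control level.

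Part of the steepest rises came from transcripts that phagocytes without corpses barely had. Of the 295 genes at least 2-fold higher, 72 had a mean under 0.5 CPM in both the control and the cytochalasin D libraries, and 129 carried only an identifier without a symbol (43.7%, against 23.5% of genes tested). A gene that low in both groups could hardly pass the filter on counts except through libraries with corpses, so the direction of these 72 was fixed by that choice and is given as a description. T cell genes, which mark the corpses, were among them: over 4 libraries, Lck had 168 fragments with both treatments and 2 in control, Zap70 170 and 1, and Lef1 125 and 0. Of 18 T cell markers in the table, 11 were at 0 in every control library and 3 (Cd3g, Cd2 and Cd5) in every library with both treatments. The summed level of these markers was 42.2 to 45.8 ppm of counts with both treatments and 35.2 to 38.0 in control (exact permutation p = 0.0286, adjusted 0.0476). Most of that sum was Tcf7 and Lat, which the phagocytes themselves held. The glycolytic gene Ldhb rose in the same manner, from no fragment in any control library to 1.4 ± 0.755 CPM, and 1.52 ± 0.644 with corpses alone, and Aldoc from 0.134 ± 0.0927 to 1.05 ± 0.236 CPM. How far RNA of the corpses entered each gene's count was not tested. The genes described from here on had at least 1 CPM in control or cytochalasin D libraries unless their levels say otherwise.

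Among genes with a symbol, at least 4 CPM in the higher group and at least 1 CPM in control or cytochalasin D libraries, the steepest rises were those of Myl9, Acta2 and Actg1. Of 31 tested members of a list of MRTF and SRF targets, 27 were higher and 1 lower (90.3% called, against 26.5% of all genes). The median log2 change of the list was 1.22, against 0.01 over all genes. Actg1, cytoplasmic gamma-actin, measured 695, 756, 814 and 917 CPM in the 4 control libraries and 9450.3, 9885, 8374 and 9362 with both treatments. The lowest library with both treatments thus lay far above the highest control library. Its rise was 11.7-fold (log2 3.54, SE 0.073, edgeR adjusted p = 1.54e-20). Actb, beta-actin, went from 4353 ± 94.9 to 14726 ± 684 CPM, a 3.38-fold rise (edgeR adjusted p = 1.54e-20), and together Actb and Actg1 took 2.36 ± 0.113% of all counts instead of 0.525 ± 0.0102%. Their share was 2.01 to 2.25% with cytochalasin D alone and 0.551 to 0.596% with corpses alone. Acta2, the smooth muscle actin, read 0.571, 1.03, 1.17 and 1.26 CPM in control and 13.3, 9.57, 10.8 and 12.5 with both treatments. Myl9, the regulatory light chain of myosin, read 0.986, 1.09, 1.9 and 1.89 CPM and 26.6, 23.2, 24 and 25.1. Both genes were barely expressed in control, and their groups did not overlap.

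The same list reached from filaments to the adhesions they end on. Zyx, which repairs strained stress fibres, rose from 70.9 ± 3.68 to 368 ± 23.4 CPM (log2 2.38, SE 0.066), and Pdlim5, an actinin-binding scaffold, from 66.8 ± 6.27 to 470.4 ± 17.2 (log2 2.81, SE 0.058). Vcl, which ties integrins to actin, rose 3.23-fold and Tagln, an actin-bundling protein, 3.72-fold. Srf itself rose 2.62-fold, from 87.7 ± 4.18 to 229.7 ± 16.1 CPM. The 3 members not called were Tpm1, Tpm2 and Lima1, at log2 changes of 0.08, 0.16 and 0.14, and the member that fell was Fhl1, a LIM protein of muscle, at -0.27. With corpses alone the list had a median log2 change of 0.06, and with cytochalasin D alone of 1.00.

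**Figure D2:**
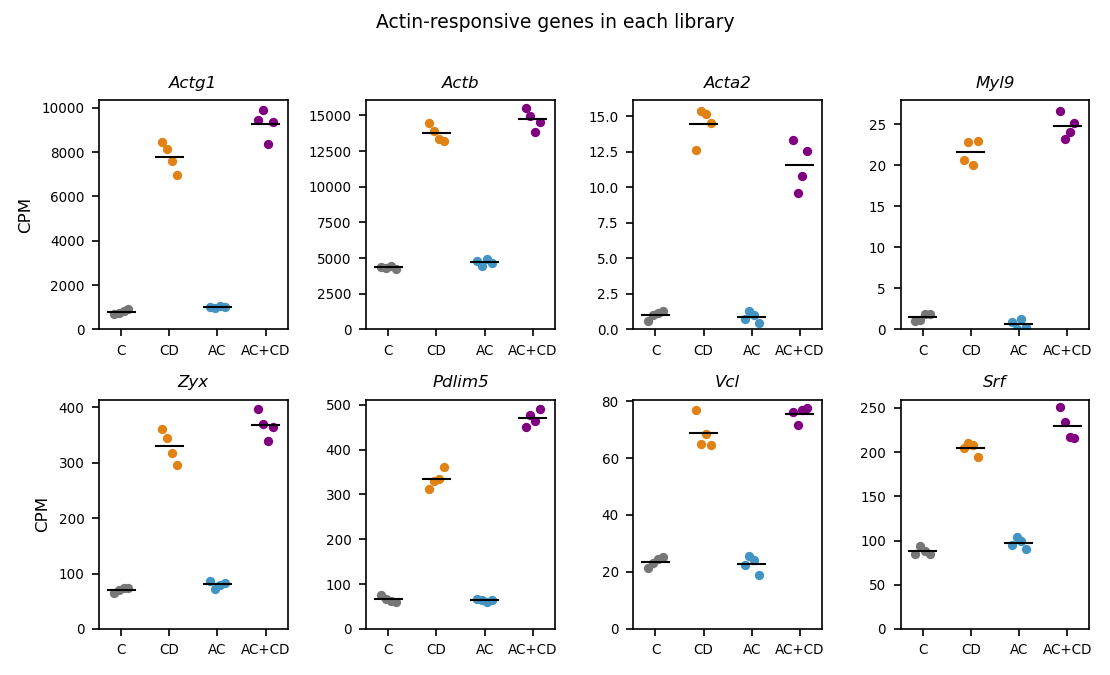
CPM (vertical, linear from 0) of 8 actin-related genes in every library, by group on the horizontal axis: C control, CD cytochalasin D, AC apoptotic cells, AC+CD both; points are libraries and bars group means of 4. In each panel the libraries with both treatments lie above all control libraries.

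Among 28 regulators of filament turnover, 15 were higher and 1, Tmsb10, lower (57.1% called, against 26.5% of all genes). Tmsb10 lost its call without control library 1, 2 or 3, library 2 or 4 with both treatments, with DESeq2 or in a robust fit. Rhob, a small GTPase of endosomes, rose from 9.38 ± 2.23 to 28.6 ± 5.06 CPM (log2 1.59, SE 0.14), Actn1, which crosslinks filaments, 1.89-fold, and Dstn, which severs them, 1.58-fold. The Arp2 and Arp3 subunits that nucleate branched actin rose too, Actr2 1.49-fold and Actr3 1.5-fold. Adhesion genes went both ways: of 18, 7 were higher and 7 lower (77.8% called). Ilk and Lims1, partners in the complex that couples integrins to actin, rose 1.81-fold and 1.69-fold, and Tln1, which activates integrins, 1.45-fold. The tensins, which bind integrin tails, fell: Tns3 from 137 ± 5.38 to 66.7 ± 1.48 CPM (log2 -1.04, SE 0.051) and Tns1 from 489 ± 37.6 to 272 ± 3.85 (log2 -0.85, SE 0.046).

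Some genes reached with both treatments a level that neither treatment gave. In 252 genes (1.92%) all 4 libraries with both treatments lay above the other 12, and in 216 (1.65%) below them. Without library 1 with both treatments the count above became 386, and without cytochalasin D library 4 the count below became 341. With raw library sizes in place of TMM scaling the balance turned, with 186 above and 296 below. Thbs1, thrombospondin-1, a matrix glycoprotein that bridges corpses to phagocytes and activates latent TGF-beta, had the widest gap among the genes above. Its 4 libraries with both treatments read 1036, 882, 953 and 1039 CPM, against 271, 301, 277 and 298 in control, 264 to 291 with cytochalasin D alone and 357 to 369.8 with apoptotic cells alone. Against control Thbs1 rose 3.41-fold (log2 1.77, SE 0.049, edgeR adjusted p = 3e-18). That exceeded the sum of its log2 changes under the single treatments by 1.5 (SE 0.069, edgeR adjusted p = 1.69e-12). The drug alone had left it at -0.07 and the corpses alone at 0.34 (edgeR adjusted p = 0.359 and 5.24e-05).

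Further genes with such an excess included both YAP targets that rose most. Ankrd1, a stretch-responsive ankyrin protein and a target of the coactivator YAP, read 2.18, 2.18, 2.12 and 1.35 CPM in control, 5.6, 5.07, 4.81 and 4.42 with the drug, 1.24, 1.86, 2.5 and 2.15 with corpses and 17.4, 13.4, 16.1 and 19.8 with both. The net rise was 8.37-fold, and 1.77 log2 units (SE 0.27, edgeR adjusted p = 0.000511) lay beyond the sum of the single changes. Cyr61, a matricellular YAP target, went from 51.6 ± 2.72 CPM to 299.9 ± 28.5, with 134 ± 3.29 under the drug alone and 57.8 ± 4.13 with corpses alone, an excess of 1.00 (SE 0.087, edgeR adjusted p = 4.73e-07). Nppb, the natriuretic peptide BNP, stood at 10.5 ± 1.57, 10.8 ± 1.26, 13.8 ± 2.13 and 28.1 ± 1.86 CPM in control, drug, corpses and both, an excess of 1.00 (SE 0.17, edgeR adjusted p = 0.00163). The drug alone had not moved Nppb past the threshold (edgeR adjusted p = 0.919), and the smaller rise with corpses alone had passed it (edgeR adjusted p = 0.0393). Errfi1, a feedback inhibitor of the EGF receptor, rose from 70.9 ± 4.18 to 153 ± 4.51 CPM, 0.55 (SE 0.066) beyond the sum, and Tnfaip3, the NF-kappaB brake A20, from 64.7 ± 5.13 to 211 ± 13.4, 0.49 (SE 0.076) beyond it.

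Not every strong rise had an excess of this kind. Sgk1, a kinase of salt and volume control, rose under each treatment alone, to 76.8 ± 3.23 CPM with the drug and 48.4 ± 2.63 with corpses from 17.7 ± 2.11 in control. With both it reached 97.6, 108, 102 and 105 CPM, 5.8-fold over control, which was -1.02 (SE 0.096, edgeR adjusted p = 1.26e-06) relative to the sum, so less than additive on the log scale. Over all genes, 598 were called for such a difference in either direction (4.56%). That count became 1645 without cytochalasin D library 4, and fell to between 251 and 366 without control library 1, cytochalasin D library 1, 2 or 3, apoptotic cell library 3 or 4, or library 3 or 4 with both treatments. The calls given for Thbs1, Ankrd1, Cyr61, Nppb, Errfi1, Tnfaip3 and Sgk1 held in all 21 alternatives run on this difference.

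**Figure D3:**
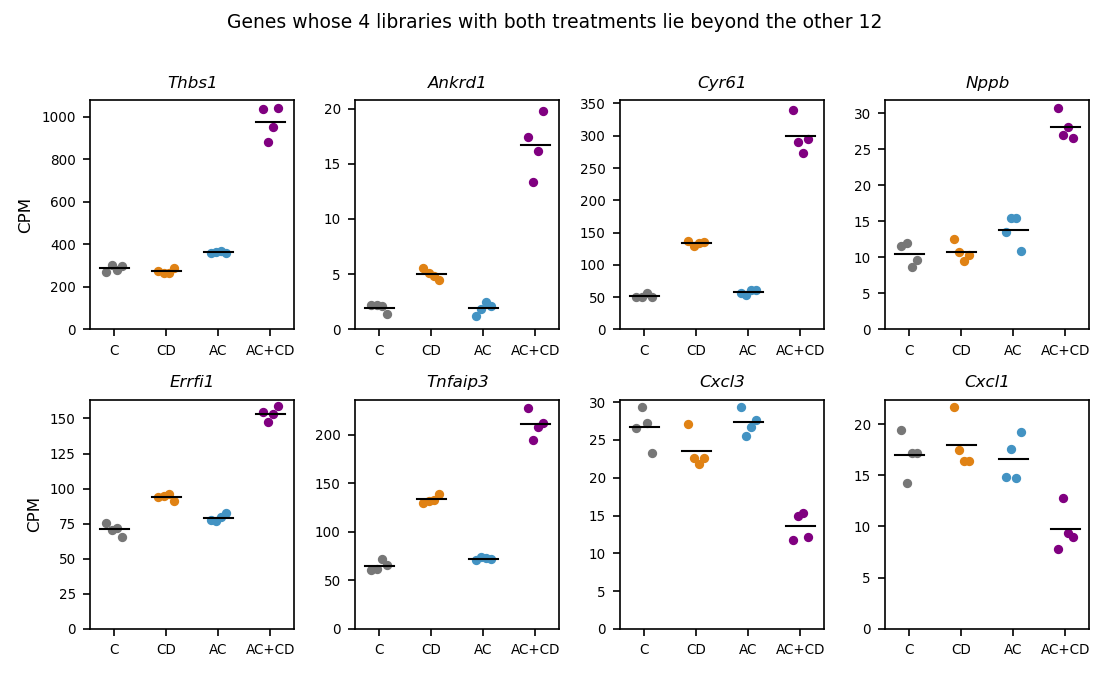
CPM (vertical, linear from 0) in every library for 6 genes above and 2 genes (Cxcl3 and Cxcl1) below all other libraries when both treatments were given; groups C control, CD cytochalasin D, AC apoptotic cells, AC+CD both, bars are means of 4. Thbs1 lay between 274 and 363 CPM on average in the other 3 groups and at 978 CPM with both.

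The chemokine genes Cxcl3 and Cxcl1 went the other way. Cxcl3, which draws neutrophils, read 26.6, 29.4, 27.3 and 23.3 CPM in control and 11.7, 15, 15.4 and 12.2 with both treatments, below all 12 other libraries. Its net change was log2 -0.99 (SE 0.10, edgeR adjusted p = 7.07e-08), and it lay -0.83 (SE 0.14, edgeR adjusted p = 0.00145) from the sum of the single changes. Cxcl1, of the same family, fell from 17 ± 2.11 to 9.73 ± 2.13 CPM (log2 -0.84, SE 0.14). Of 13 inflammatory genes tested, 4 were higher and 5 lower (69.2% called, against 26.5% of all genes). Il15, a survival factor for lymphocytes, fell from 14.3 ± 0.831 to 3.86 ± 0.657 CPM (log2 -1.86, SE 0.13), and Icam1, a leukocyte ligand, fell by 1.21-fold. Rises were those of Il11, a cytokine of the gp130 family, from 1.77 ± 0.423 to 6.71 ± 0.832 CPM, of Lif, another of that family, 1.54-fold, of Ptgs2, the inducible cyclooxygenase, 2.21-fold, and of the growth factor gene Csf2 from 0.236 ± 0.0866 to 1.18 ± 0.539 CPM. Of 12 NF-kappaB feedback genes, Tnfaip3 alone was called higher and Nfkbie and Relb lower (25% called, against 26.5% of all genes). Of 16 interferon-responsive genes, 0 were higher and 3 lower, with Oasl at log2 -0.84 (SE 0.11) and Irf1 at -0.59 (SE 0.11), and Isg15 and B2m not called. The remaining fall lost its call without control library 1 or 3 or library 1 or 4 with both treatments. The share called in that list was 18.8%, below that of all genes.

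Immediate early genes, which answer stimuli within minutes, went both ways. Of 32 tested, 17 were higher and 4 lower (65.6% called, against 26.5% of all genes). Jun rose from 46.9 ± 4.57 to 181 ± 46.6 CPM (log2 1.95, SE 0.15), Atf3, a stress-induced repressor, from 2.37 ± 0.505 to 8.4 ± 1.07, Dusp1, a MAP kinase phosphatase, from 12.3 ± 0.64 to 44.4 ± 2.03, and Gem, a small GTPase, from 1.9 ± 0.421 to 8.42 ± 0.412. The zinc finger factor Egr1 took the opposite course, with 43, 36, 40.2 and 38.1 CPM in control and 11.6, 9.2, 8.64 and 8.32 with both treatments. That was a 4.11-fold fall (log2 -2.04, SE 0.11, edgeR adjusted p = 5.55e-13), and the groups did not overlap. Corpses alone gave Egr1 50.3 ± 3.87 CPM and the drug alone 6.66 ± 0.969. Klf4, another zinc finger factor, fell from 163 ± 7.89 to 76.2 ± 11.3 CPM, while Fos, Fosb and Junb were not called. Among 13 genes of EGF receptor signalling and its feedback, 6 were higher and 1 lower (53.8% called). Dusp10, a phosphatase of JNK and p38, rose 3.58-fold and Spry2, a MAP kinase inhibitor, 1.91-fold, and Dusp7, an ERK phosphatase, fell 1.51-fold.

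YAP targets did not move as a block. Of 19 tested, 5 were higher and 5 lower (52.6% called, against 26.5% of all genes), with a median log2 change of -0.06. Beside the steep rises of Ankrd1 and Cyr61, Ajuba, a LIM protein that restrains LATS kinases, fell from 337 ± 11 to 145 ± 7.46 CPM (log2 -1.21, SE 0.043), and Amotl2, which holds YAP at junctions, fell 1.39-fold. Axl, a receptor for corpse-bound Gas6 and itself a YAP target, fell 1.27-fold. Among 13 targets of TGF-beta and BMP, 5 were higher and 2 lower (53.8% called). Without control library 1, or without library 1 with both treatments, 3 of these 13 were higher in place of 5.

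Most DNA replication genes fell. Of 32 tested members of a list for replication and the entry into S phase, 28 were lower and 0 higher. That was 87.5% called, against 26.5% of all genes, with a median log2 change of -0.40. With cytochalasin D alone the list had a median of -0.38 and with corpses alone of 0.09. Cyclin E2, Ccne2, which drives that entry, read 47.4, 38.5, 39.5 and 44.2 CPM in control and 20.9, 18.4, 21.4 and 20.4 with both treatments, without overlap (log2 -1.06, SE 0.089, edgeR adjusted p = 2.78e-09). Its partner Ccne1 fell 2.03-fold, the activator E2f2 2.16-fold, and Ung, which removes uracil from DNA, 2.53-fold. The helicase subunits Mcm3, Mcm4, Mcm5, Mcm6 and Mcm7 fell by smaller amounts, Mcm6 from 245 ± 3.16 to 172 ± 2.55 CPM, and Mcm2 was not called at log2 0.06. In bulk libraries, fewer cells in S phase and less of these transcripts per cell cannot be told apart. Mitotic genes did not share the fall: of 29, 10 were higher and 2 lower (41.4% called). Prc1, which bundles the midzone microtubules, was up 1.31-fold and the kinase gene Aurka 1.26-fold. Mad2l1, a checkpoint gene and the weaker of the 2 falls, lost its call without control library 1, 2 or 3 or library 1, 3 or 4 with both treatments. Among 19 p53 targets, 6 were higher and 3 lower (47.4% called). Cdkn1a, the inhibitor p21 that stops cells before S phase, rose from 150.3 ± 9.2 to 269 ± 23.2 CPM (log2 0.84, SE 0.072), and Tp53inp1, which promotes p53 activity, fell from 49.3 ± 3.91 to 22.2 ± 3.09 (log2 -1.16, SE 0.091). Without library 2 with both treatments, 5 p53 targets were lower in place of 3.

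The steepest fall under the same limits of level as above was that of Syt16. This gene of the synaptotagmin family fell from 4.92 ± 0.582 to 0.595 ± 0.149 CPM (log2 -2.96, SE 0.25), and its libraries with both treatments lay below all 12 others. Cdh1, E-cadherin, which seals contacts between epithelial cells, fell from 6.79 ± 1.1 to 1.44 ± 0.345 CPM (log2 -2.26, SE 0.23). Gli1, the transcriptional output of hedgehog signalling, fell 3.03-fold and Nfib, a nuclear factor I gene, 2.74-fold. The receptor Pdgfra fell from 49.1 ± 4.36 to 22.9 ± 1.98 CPM, and the 13 fibroblast markers together from 6013 ± 213 to 4676 ± 221 ppm (exact permutation p = 0.0286, adjusted 0.0476), without overlap. Most of that fall was Vim, from 4414 to 3190.2 ppm. Of the 8 markers tested 4 were lower (50% called, against 26.5% of all genes), while Fn1, Sparc, Col3a1 and Pdgfrb were not called. Cytochalasin D alone gave 4491 to 5045 and corpses alone 6883 to 7261 ppm.

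Of 22 genes of glucose uptake and glycolysis, 12 were higher and 2 lower (63.6% called, against 26.5% of all genes). The 12 include Ldhb and Aldoc, both near 0 in control as given above. Ldhb had no fragment in any control library, so only a rise could be seen for it. Slc2a1, the glucose transporter GLUT1, read 78, 84.3, 76.9 and 80.2 CPM in control and 163, 153, 145 and 152 with both treatments, 1.92-fold higher (SE 0.055 on the log2 scale, edgeR adjusted p = 4.71e-12) and without overlap. Pfkfb3, which makes the activator of phosphofructokinase, rose 1.87-fold. Slc16a1, the lactate transporter MCT1, was at 298 ± 4.1 and 275 ± 5.32 CPM, a log2 change of -0.11 (edgeR adjusted p = 0.0457) that lost its call without any of the 4 control libraries or library 1, 2 or 3 with both treatments (across its alternatives the adjusted p reached 0.0981). Slc16a1 also met the rule, given below, for a drug fall undone, and did so in 23 of 24 alternatives. Pfkm, of the muscle phosphofructokinase and the other fall, lost its call without control library 1, 2 or 3 or library 1, 2 or 4 with both treatments. Of 23 genes of cholesterol synthesis, 0 were higher and 12 lower (52.2% called). Insig1, which retains the sterol sensor in the endoplasmic reticulum, fell from 57.3 ± 4.25 to 35.4 ± 2.21 CPM, 1.63-fold, and Fasn, fatty acid synthase, 1.54-fold.

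Lysosomal genes leaned upward, with 22 of 32 higher and 1 lower (2 without library 1 with both treatments). That was 71.9% called, against 26.5% of all genes, with a median log2 change of 0.28. The median of this list was 0.34 with cytochalasin D alone and -0.02 with corpses alone. Gla, alpha-galactosidase, rose from 21.2 ± 0.704 to 77.7 ± 5.98 CPM (log2 1.88, SE 0.086). The protease gene Ctsb rose 1.53-fold, Neu1, a sialidase, 1.55-fold and the calcium channel gene Mcoln1 1.48-fold, while Tfeb, the factor that switches on lysosomal genes, fell 1.73-fold. Oxidative stress genes were split, with 3 of 17 higher and 6 lower (52.9% called). Hmox1, heme oxygenase, rose from 136 ± 8.22 to 299 ± 17.5 CPM, and Nfe2l2 (NRF2), the factor that answers oxidative stress, fell 1.44-fold. Matrix genes gave 9 of 25 higher and 3 lower (48% called). The largest rise was that of the proteinase Mmp10, from 0.766 ± 0.282 to 6.17 ± 0.452 CPM, and Adamts1, a matrix protease, was down 1.8-fold.

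Chloride and volume genes were examined because the study names Slc12a2, which codes for NKCC1, a carrier that brings sodium, potassium and chloride into the cell. Of 25 tested, 10 were higher and 6 lower (64% called, against 26.5% of all genes). Slc12a2 read 53, 48.8, 44.9 and 52.2 CPM in control and 36.1, 42, 37.2 and 42.4 with both treatments, and 22.9 to 36.2 with the drug alone. The net fall was 1.27-fold (log2 -0.34, SE 0.099, edgeR adjusted p = 0.0116). Oxsr1, a kinase that activates this carrier, fell 1.17-fold, and its relative Stk39 was not called (log2 -0.04, 95% interval -0.15 to 0.06). Lrrc8a, the essential subunit of the volume-regulated anion channel, rose 1.38-fold, and the water channel gene Aqp1 fell from 113 ± 3.94 to 51 ± 2.16 CPM.

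Of 20 genes of the unfolded protein response, 3 were higher and 1 lower (20% called, against 26.5% of all genes), and of 18 heat shock genes 4 and 0 (22.2%), with Cryab, a small heat shock protein, the largest at 1.66-fold. The count lower was 2 for the unfolded protein list without control library 4 or library 1 or 2 with both treatments, and 1 for the heat shock list without library 1 with both. Among 32 cytosolic ribosomal protein genes, 3 were higher and 0 lower (9.38% called). The count higher became 5 without control library 4 or library 2 with both treatments. It became 1 without control library 1 or 3 or library 3 with both. Genes of corpse recognition and uptake gave 4 of 22 higher and 3 lower (31.8% called, near the share of all genes). Anxa1, a corpse-associated annexin, rose from 677 ± 19.4 to 1183 ± 56.9 CPM and Elmo1, part of the Rac activator of engulfment, 1.31-fold, and Abca1, a cholesterol exporter, fell 1.19-fold. Without control library 1 or 4, or library 2 or 3 with both treatments, 2 of these were higher in place of 4. Rac1 and Mfge8 were not called.

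**Figure D4:**
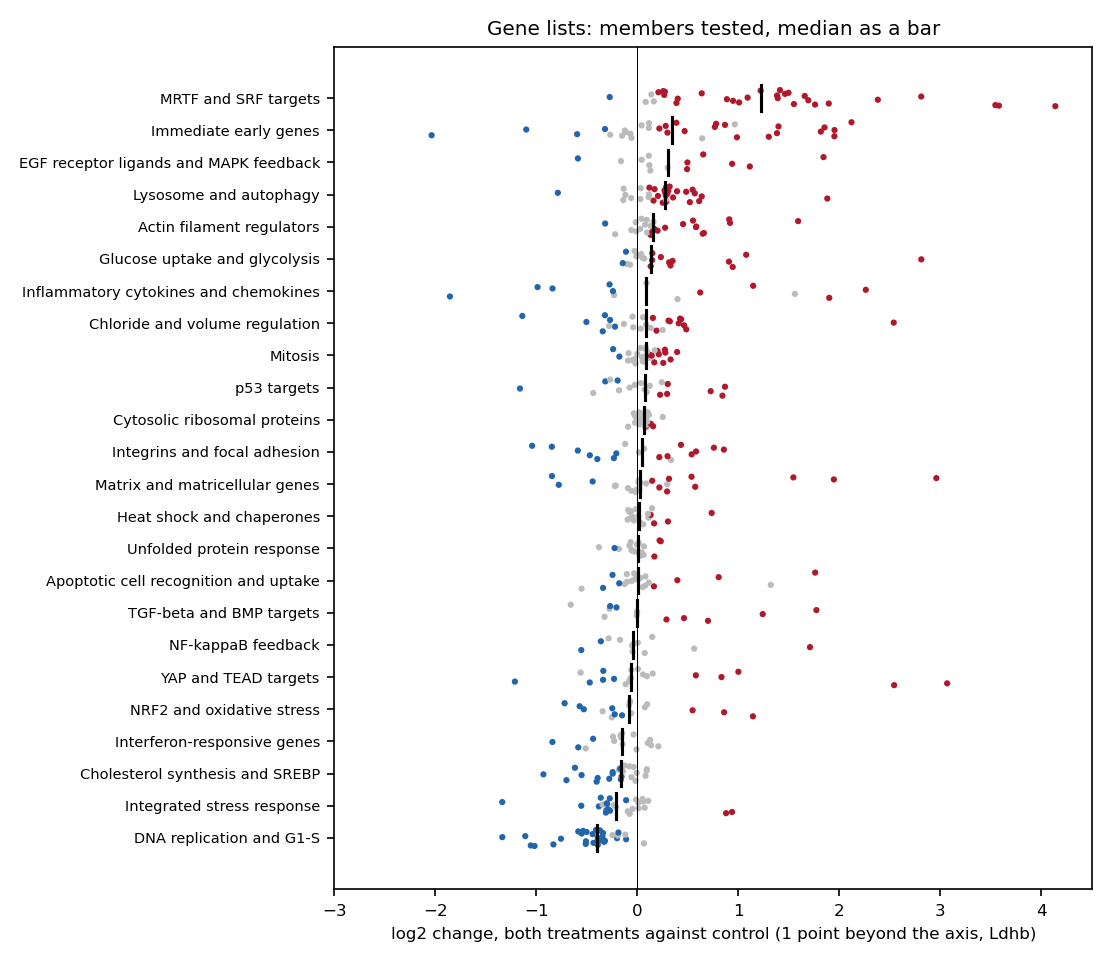
Log2 change of both treatments against control (horizontal) for the tested members of 24 gene lists (rows, ordered by median); each point is a gene, red called higher, blue called lower, grey not called, and the black bar is the list median. MRTF and SRF targets sit at the top with a median of 1.22 and DNA replication genes at the bottom with -0.40.

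A further class of genes moved under 1 treatment and ended at the control level with both. A gene was placed there if a single treatment changed it, if adding the other treatment changed it back in the opposite direction, and if the 95% interval of its net change stayed within a margin of 25% (0.32 on the log2 scale, either way). The interval was used because a missed threshold does not show equal levels: an interval of that kind was found for 5431 genes (41.4%), and of 9628 genes not called, 4815 had it and 4813 did not. In the same fit, cytochalasin D alone changed 3451 genes (26.3%) and corpses alone 1789 (13.7%), adding corpses to the drug changed 1129 (8.61%) and adding the drug to corpses 4256 (32.5%). By the rule 735 genes (5.61%) were back at the control level. A change is called undone here by its end level only. The rule cannot tell a lost effect from an intact effect offset by an opposite effect of the other treatment. The contrasts that choose these genes share libraries, so the counts are a description without a test. A rise under cytochalasin D was undone in 109 genes (0.832%) and a fall in 162 (1.24%). A rise with corpses was undone in 232 (1.77%) and a fall in 298 (2.27%), and 66 genes met both routes. The control and combined libraries overlapped for 652 of the 735, and 51 still passed the net test with a small change. The margin itself favours overlap and few net calls, so these counts do not test the return to control. Over all genes tested, the groups did not overlap for 27.8% and 26.5% passed the net test. The count rose to 1046 without cytochalasin D library 4, with 197 drug rises and 284 drug falls undone. Drug rises undone numbered 71 without cytochalasin D library 2 or 3. Drug falls undone numbered 94 to 102 without cytochalasin D library 1, 2 or 3, or library 3 or 4 with both treatments. Corpse rises undone numbered 143 without control library 1 and 114 without apoptotic cell library 3, and corpse falls undone 171 to 198 without control library 1 or apoptotic cell library 1, 3 or 4. At a margin of 15%, 393 genes met the rule.

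Atf4, the factor that carries out the integrated stress response, was pushed to opposite sides. It read 277, 278, 287 and 295 CPM in control, 412, 415, 389.9 and 404 with the drug, 198, 189, 203 and 190.2 with corpses and 273, 271, 264 and 269 with both. The drug alone raised it 1.43-fold and corpses alone lowered it 1.45-fold, and with both its log2 change was -0.08 (95% interval -0.15 to -0.00). The single-treatment libraries lay wholly above and wholly below control, and this gene kept its place in all 24 alternatives. Sesn2, a stress-induced brake on mTORC1 and a target of Atf4, stood at 21 ± 0.827, 32.4 ± 3.39, 15.7 ± 0.929 and 22 ± 1.42 CPM in control, drug, corpses and both, and its net log2 change was 0.07 (95% interval -0.10 to 0.25). Of 27 integrated stress response genes tested, 2 were higher and 12 lower (51.9% called, against 26.5% of all genes). Counted separately, 7 of the 27 met the rule for the control level, and a gene can be in both counts. The list had a median log2 change of -0.21 with both treatments, 0.03 with the drug alone and -0.22 with corpses alone. The genes called lower included Slc6a9, a glycine transporter, from 5.93 ± 1.24 to 2.32 ± 0.361 CPM, and Ddit4, an mTORC1 inhibitor, 1.47-fold down. Those called higher were Chac1, which degrades glutathione, and Ddit3 (CHOP), 1.91-fold and 1.84-fold. The asparagine synthetase gene Asns was not called (log2 -0.10, 95% interval -0.23 to 0.04).

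Other genes that rose under cytochalasin D ended at the control level when corpses were present. Fgd3, an exchange factor for the GTPase Cdc42, read 48 ± 1.62 CPM with the drug against 31.2 ± 2.59 in control and 32.1 ± 1.65 with both, and Slc29a3, a lysosomal nucleoside transporter, 48 ± 1.84 against 32.2 ± 1.29 and 33.6 ± 1.44. In both genes the drug libraries lay above every other library, and the net log2 changes were 0.05 (95% interval -0.12 to 0.22) and 0.06 (-0.12 to 0.24). Corpses alone lowered Slc29a3, which also met the rule for a corpse fall undone, and did so in 21 of 24 alternatives. Fgd3 met the rule by the drug route only. Falls were undone as well. Il1rl1, the receptor for interleukin-33, read 15, 15.3, 14.9 and 15.1 CPM in control, 10.2, 9.56, 10.5 and 12.3 with the drug and 14.3, 17.5, 16.5 and 15.3 with both, and 19.8 ± 1.58 with corpses alone, so it too was held between opposite single changes. Peli2, a ubiquitin ligase of Toll-like receptor signalling, went from 85.8 ± 4.01 CPM to 62.9 ± 4.78 with the drug and 78 ± 3.93 with both (net log2 -0.14, 95% interval -0.26 to -0.02).

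Genes that corpses alone had changed also ended at the control level when the drug was present. Ltbp2, a matrix protein of the latent TGF-beta binding family, read 44.7, 48.1, 47.6 and 44.8 CPM in control, 75.9, 73.5, 74.2 and 66.6 with corpses and 48.1, 45.3, 45.3 and 45.6 with both. Its net log2 change was -0.01 (95% interval -0.15 to 0.14), and the libraries of corpses alone lay above the other 12. Igfbp4, which binds insulin-like growth factors, rose to 1423 ± 105 CPM with corpses from 812 ± 61.1 and lay at 749.5 ± 68.1 with both, and Mrpl17, of the mitochondrial ribosome, rose to 45.4 ± 2.24 from 30.2 ± 2.29 and lay at 31.8 ± 1.56. Etnk1, an ethanolamine kinase of phospholipid synthesis, fell with corpses to 79.99 ± 7.02 CPM from 114 ± 6.85 and lay at 111 ± 7.77 with both (net log2 -0.04, 95% interval -0.18 to 0.09). Map3k13, a kinase upstream of JNK, fell to 9.51 ± 1.35 CPM from 13.7 ± 0.631 and lay at 13.8 ± 1.21 with both. Ltbp2 and Etnk1 kept their place in all 24 alternatives.

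**Figure D5:**
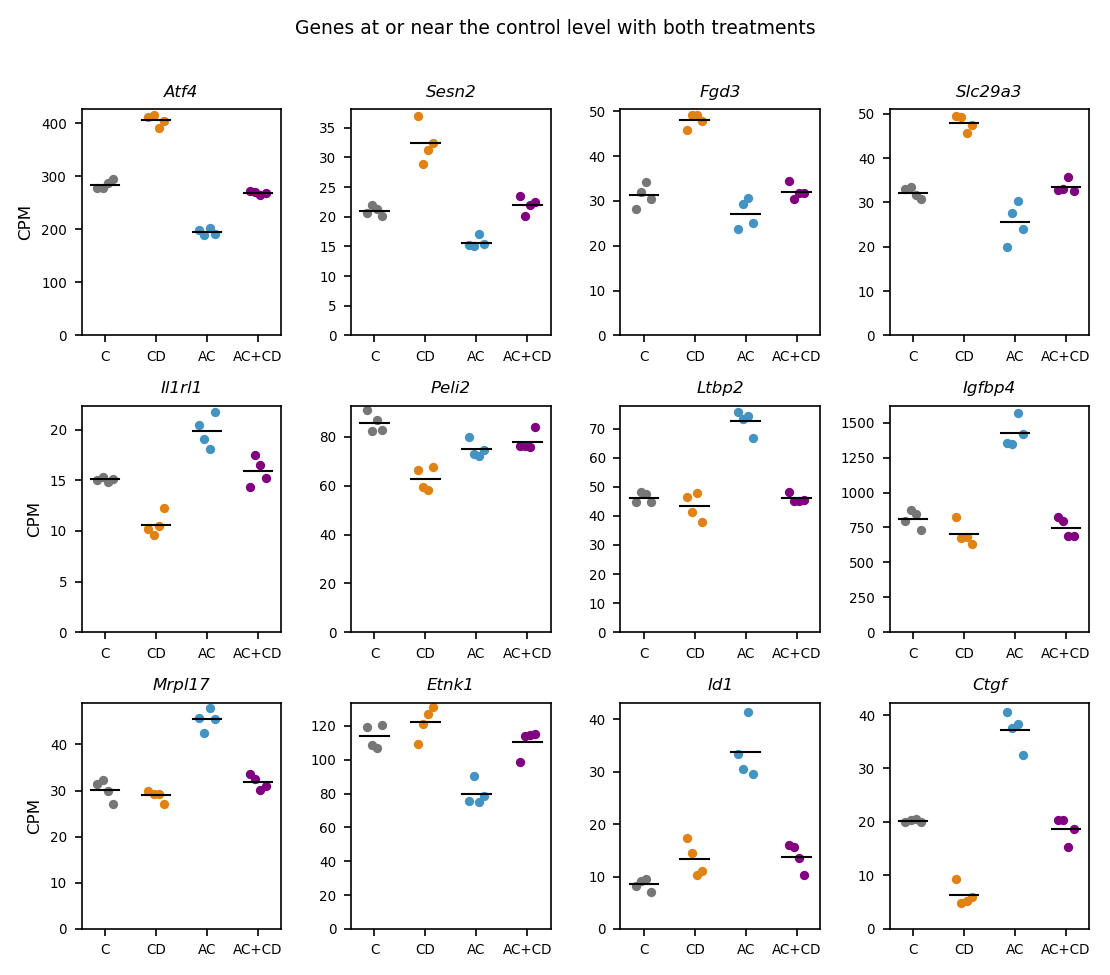
CPM (vertical, linear from 0) in every library for 12 genes, groups C control, CD cytochalasin D, AC apoptotic cells, AC+CD both, bars are means of 4. In the first 10 panels the libraries with both treatments lie at the control level while at least 1 single treatment is displaced; Id1 stayed above control and the interval of Ctgf was too wide to place it.

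Several genes came near the control level without meeting the rule. Ctgf, a matricellular YAP and TGF-beta target, read 20.03, 20.3, 20.6 and 19.99 CPM in control, 9.35, 4.93, 5.16 and 6.04 with the drug, 40.5, 37.6, 38.3 and 32.6 with corpses and 20.4, 20.4, 15.4 and 18.6 with both. The drug lowered it 3.2-fold and corpses raised it 1.84-fold, and the net log2 change was -0.12, but its 95% interval, -0.38 to 0.15, passed the margin. Id1, an inhibitor of differentiation factors and a BMP target, rose with corpses from 8.48 ± 1.11 to 33.7 ± 5.38 CPM and lay at 13.8 ± 2.63 with both, a partial return that left it 1.62-fold above control (edgeR adjusted p = 0.00274). Trib3, a pseudokinase induced by Atf4, rose under the drug (49.9 ± 7.02 CPM against 25.1 ± 2.85) and lay at 20.2 ± 2.26 with both, and its net call (log2 -0.31, edgeR adjusted p = 0.0297) was lost without control library 3 or 4 or library 3 or 4 with both treatments (across its alternatives the adjusted p reached 0.254). At the edge of the margin, a log2 value of 0.32, Ddx20 lay just inside with an interval of -0.32 to -0.04 and Blcap just outside with -0.32 to -0.06 on the drug route, and Cuta just inside with -0.32 to 0.20 on the corpse route.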

How the data were processed

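The authors deposited raw fragment counts per gene name, made with featureCounts 1.5.0, whose input was STAR output, per the file headers. Exonic fragments counted where both mates aligned, and strand was ignored, per the file headers, so overlapping and antisense genes cannot be told apart. FastQC, STAR, featureCounts and DESeq2 are named in the submitters' processing notes, and the genome build is not given in the sources used here. Reads were 75 bp and paired, from mRNA libraries, per the labels' protocols. Human reads were not separated from hamster reads in any step recorded there. A row without a gene name, 0.0361% of control counts, was left out.

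All 16 libraries of the first experiment were fitted with edgeR 4.0.16 in R 4.3.3 (filterByExpr with minimum count 10 and total 15, TMM factors, quasi-likelihood F test on group, Benjamini-Hochberg adjustment over 13106 genes). The contrast was both treatments minus control; single-treatment contrasts come from the same fit, and the difference from the sum of single changes was added after seeing the data. The biological coefficient of variation was 7.04%. Intervals are at 95% for the log2 difference between groups, with a standard error drawn from the spread between libraries. That spread is within a single experiment on a single line, not between experiments. Shares were compared with two-sided exact permutation tests over 70 assignments. The test was tried on simulated data.

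The members and gene lists were chosen with earlier results of these data known. The rule for named genes took, per direction, the 12 called genes of largest change that had a symbol, at least 4 CPM in the higher group, at least 1 CPM in control or cytochalasin D libraries and no overlap of the groups. To these came 6 genes per route and direction back at the control level, 6 per direction beyond the other 12 libraries, up to 4 per list and direction, and 10 fixed genes, and the text names a subset. Actr2, Actr3, Asns, Atf3, Ctgf, Lima1, Mcm2, Mcm6, Pfkfb3, Srf, Tagln, Tpm1, Tpm2, Trib3 and Vcl, the genes at the edge of the margin and genes named only as called or not called were chosen after their values were seen.

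Alternatives were DESeq2 1.42.0, limma-voom (limma 3.58.1), relative log expression factors, no filter, at least 1 CPM in 4 libraries, an adjusted p under 0.01, at least 1.5-fold, a robust fit, the 8 libraries alone, a replicate block, removal of the gene length trend, raw library sizes, margins of 15% and 50%, and each library left out. Later, with the data seen, came removal of 3 libraries apart on the third principal component and of 117 genes near 0 without corpses, and the alternatives for the difference from the sum and for library composition. No pair of libraries agreed within sampling noise. Some items are not reported here.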

Additional observations from a re-analysis of the deposited data

Results flagged for a closer look

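Of 248 groups of 4 libraries examined, for the genes named above and 6 measures of library composition, 14 had a library far from the other 3, by a gap, relative to the group's range, above Dixon's 95% critical value. Chance marks about 1 in 20 groups. The causes were not tested. For Ankrd1 in the control group, library 4 was lowest at 1.35 CPM against 2.12 to 2.18 in the others, a gap of 0.919 of the range. Cyr61 was highest in library 3 of the control group, at 55.7 CPM against 50.1 to 50.6 in the others, a gap of 0.902 of the range. For Ddx20 in the control group, library 4 was highest at 48.9 CPM against 41.8 to 42.7 in the others, a gap of 0.872 of the range. Aqp1 was highest in library 1 of the group with both treatments, at 54.2 CPM against 49.6 to 50.2 in the others, a gap of 0.864 of the range. For Blcap in the group with both treatments, library 4 was lowest at 50.4 CPM against 58.9 to 59.8 in the others, a gap of 0.905 of the range. Cdh1 was lowest in library 1 of the group with both treatments, at 0.923 CPM against 1.59 to 1.63 in the others, a gap of 0.950 of the range. For Etnk1 in the group with both treatments, library 1 was lowest at 98.9 CPM against 114 to 115 in the others, a gap of 0.929 of the range. Lima1 was lowest in library 1 of the group with both treatments, at 92.1 CPM against 101 to 103 in the others, a gap of 0.851 of the range. For Ltbp2 in the group with both treatments, library 1 was highest at 48.1 CPM against 45.3 to 45.6 in the others, a gap of 0.893 of the range. Pdgfra was lowest in library 2 of the group with both treatments, at 19.997 CPM against 23.7 to 24.2 in the others, a gap of 0.874 of the range. For Peli2 in the group with both treatments, library 4 was highest at 83.9 CPM against 75.8 to 76.2 in the others, a gap of 0.957 of the range. Pfkfb3 was highest in library 4 of the group with both treatments, at 162 CPM against 143 to 146 in the others, a gap of 0.831 of the range. For Ptgs2 in the group with both treatments, library 2 was highest at 22.8 CPM against 17.5 to 18.2 in the others, a gap of 0.861 of the range. Slc29a3 was highest in library 3 of the group with both treatments, at 35.7 CPM against 32.7 to 33.1 in the others, a gap of 0.859 of the range.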

How the results depend on the processing

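The net count of 3478 genes lay between 2946 and 3162 with each of the 8 libraries left out (1488 to 1655 higher, 1458 to 1589 lower). It was 877 at a minimum of 1.5-fold (533 higher, 344 lower). Without 3 libraries apart on the third component it was 2957, with DESeq2 3472 and with limma-voom 3437. Over the named genes, no net change reversed, 226 of the values under alternatives lost their call and 9 gained one. The class back at the control level held 504 to 1046 genes with each of 16 libraries left out. Its parts ranged over 71 to 197 (drug rises), 94 to 284 (drug falls), 114 to 310 (corpse rises) and 171 to 345 (corpse falls). These 4 parts were 66, 106, 106 and 158 at a margin of 15% (393 in all) and 45, 56, 90 and 99 at an adjusted p under 0.01 (265 in all), while corpse rises were 372 at a margin of 50%. Without the 3 libraries apart, 462 genes were in the class, with 55 drug rises, 63 drug falls and 198 corpse falls. Genes beyond the other 12 libraries numbered 477 to 704 (257 to 386 above, 217 to 341 below) with a library left out, which can only widen a gap, and 349 below without the 3 libraries apart. Genes called for the difference from the sum ranged over 251 to 1645 with a library left out and were 120 without the 3 libraries apart. Left-out libraries moved the differences in composition over -3333552 to 212822 total counts, 20.3 to 426.7 genes detected, 1.74 to 1.88 percentage points for the top 20 genes, 7.08 to 8.35 and -1421 to -1266 ppm for T cell and fibroblast markers, and 1.80 to 1.89 points for both actins. The causes were not tested. Correlations of same-numbered control and combined libraries were -0.02, -0.04, -0.05 and 0.18, so these groups showed no general pairing by number. Library 4 with both treatments was the 1 that correlated best with its own number. On the third component, drug libraries rose with replicate number from -31.8 to 4.15 and combined libraries from -5.99 to 23.3. Control and apoptotic cell libraries did not follow that order, though control library 4 was the highest at 27.2. What this order reflects was not tested. A paired fit with a replicate block called 3413 genes and put 762 back at the control level. It called 753 genes for the difference from the sum, in place of 598. Low counts limit genes under about 1 CPM.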
